A study of Mus musculus with 117 samples.

Results

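Stable state 4 regions are stretches of the mouse autosomes that carried chromatin state 4 in hepatocytes of nearly every one of 9 inbred strains. They were chosen by the deposited state numbers alone: a bin of 200 bp was a member where at least 7 of the 9 strain segmentations gave it state 4, and adjacent member bins were merged. The rule gave 133514 bins of 12313718 autosomal bins, which is 1.08%, in 23561 regions that span 26.7 Mb. Of the strains, C57BL/6J, 129S1/SvImJ, DBA/2J, NZO/HlLtJ, A/J and NOD/ShiLtJ are laboratory strains, WSB/EiJ, CAST/EiJ and PWK/PhJ derive from wild mice, and the labels name no treatment and no engineered allele. All mice were females of 12 weeks, and the labels give the cells as hepatocytes from liver. Each strain had ChIP-seq libraries (sequencing of DNA bound to an immunoprecipitated protein) of H3K4me1, H3K4me3, H3K27ac and H3K27me3 from 3 mice and 1 input library, 117 libraries in all. The deposited segmentation of a strain combines its libraries, so a strain is 1 value, the spread within a strain is unknown, and the depth is unknown. The study relates differences in histone configuration between these strains to gene expression.

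A segmentation divides the genome into states, each a recurring combination of histone marks. Of the marks used here, H3K4me3 is known from active promoters, H3K4me1 from enhancers and the flanks of promoters, H3K27ac from active enhancers and promoters, and H3K27me3 from genes silenced by Polycomb proteins. Enhancers of liver genes often lie in introns or between genes, where transcription factors that define hepatocytes bind. The mark content of the 14 states is not given in the sources used here, so the number 4 serves as a label without any mark attached. A bulk segmentation also cannot tell a region that is in a state in all cells from one that is in it in a share of the cells.

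Few stable state 4 regions covered a listed start of a protein-coding gene, and 4 that did are shown by the sequence at the start. Of 20062 listed start sites, 144 (0.718%) from 129 genes lay in a stable state 4 bin. The sequences are the 250 bases before the start, from RefSeq (GRCm38.p6, the same build as mm10), 5′ to 3′ on the gene's strand, with each CG dinucleotide in capitals because CG number separated these starts from those in state 3. Arhgef3 encodes a guanine nucleotide exchange factor, and a listed start at position 27238010 of chromosome 14 (chr14:27237760-27238009, plus strand) was in state 4 in 7 strains. This start is internal, since the annotated body of Arhgef3 runs from 27114461 to 27403916. Rreb1 encodes a zinc finger transcription factor, and this start (chr13:37888184-37888433, plus strand) was in state 4 in 9 strains. The start of Mroh2a (chr1:88226770-88227019, plus strand) was in state 4 in 8 strains. Lpin1 encodes a phosphatidate phosphatase of lipid synthesis, and this start (chr12:16610967-16611216, minus strand) was in state 4 in 9 strains. Lpin1 was chosen after its values were seen, and the other genes are named by the rules given with the processing.
Arhgef3: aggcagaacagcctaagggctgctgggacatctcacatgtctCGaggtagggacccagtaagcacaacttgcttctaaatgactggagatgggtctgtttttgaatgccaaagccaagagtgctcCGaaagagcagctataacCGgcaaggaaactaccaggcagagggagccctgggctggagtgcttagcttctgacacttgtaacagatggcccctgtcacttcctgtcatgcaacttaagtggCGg
Rreb1: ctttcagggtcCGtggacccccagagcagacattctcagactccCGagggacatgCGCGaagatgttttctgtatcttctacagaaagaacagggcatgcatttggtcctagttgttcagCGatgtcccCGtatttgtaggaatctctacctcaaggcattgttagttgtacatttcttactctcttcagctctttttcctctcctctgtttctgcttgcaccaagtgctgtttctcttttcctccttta
Mroh2a: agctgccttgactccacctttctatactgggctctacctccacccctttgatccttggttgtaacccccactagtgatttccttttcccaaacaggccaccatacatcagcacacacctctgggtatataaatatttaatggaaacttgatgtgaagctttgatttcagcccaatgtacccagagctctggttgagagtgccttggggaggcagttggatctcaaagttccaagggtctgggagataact
Lpin1: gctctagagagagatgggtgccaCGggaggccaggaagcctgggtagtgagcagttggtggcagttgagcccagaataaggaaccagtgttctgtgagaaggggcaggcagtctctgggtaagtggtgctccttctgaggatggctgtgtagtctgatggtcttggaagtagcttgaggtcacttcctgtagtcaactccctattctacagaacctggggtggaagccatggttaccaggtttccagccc

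These upstream sequences held 4, 6, 0 and 1 CG in the order printed. Over all 144 starts in stable state 4, the listed 300 bases (250 before the start and 50 after it) held a median of 5 CG, with quartiles of 2 and 7. The 7432 starts in stable state 3 held a median of 24, the 1592 starts in stable state 1 held 9, the 4157 starts in stable state 14 held 2 and all starts held 14. The GC content was 54.9% ± 7.02 (SD over 144 starts) in stable state 4, 53.9% in state 1, 63.3% in state 3, 45.5% in state 14 and 56.5% over all starts. The tetramer CGCG was in 11.8% of the starts in stable state 4, in 38.4% of those in state 1, 81.7% in state 3, 5.56% in state 14 and 50.3% of all starts. TATAAA was in 10.4%, 11.2%, 5.23%, 27.2% and 12.7% of the same sets, and GGGCGG in 22.9%, 38.2%, 72.2%, 9.26% and 47.0%, each read on both strands. These are letters in a window and not sites, and several starts can belong to 1 gene.

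Short RNA genes inside the regions gave another set of sequences, chosen after their values were seen. Of 919 autosomal miRNA hairpins in RefSeq, 27 (2.94%) overlapped a stable state 4 bin. A region of 3400 bp inside Aopep on chromosome 13 held the hairpins of Mir23b (chr13:63300484-63300557), Mir27b (chr13:63300712-63300784) and Mir24-1 (chr13:63301208-63301275) on the plus strand. At each of these hairpins 9 strains were in state 4. Mir3074-1 lies opposite Mir24-1 on the minus strand. A region of 400 bp inside Srebf2, which encodes a transcription factor of cholesterol synthesis, held Mir33 (chr15:82198122-82198190, plus strand) and was in state 4 in 7 strains there. A single mature sequence per hairpin is printed with the seed (bases 2 to 8), the part that pairs with targets, in capitals. For Mir23b and Mir3074-1 only the 5p sequence was listed, so a 3p sequence and its seed are not shown.
mmu-miR-23b-5p: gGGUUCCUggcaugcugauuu
mmu-miR-27b-3p: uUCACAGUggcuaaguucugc
mmu-miR-24-3p: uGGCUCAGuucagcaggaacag
mmu-miR-3074-5p: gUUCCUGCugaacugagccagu
mmu-miR-33-5p: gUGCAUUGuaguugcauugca

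The seeds printed differ from each other. Other hairpins in the regions included Mir6921 in Srebf1, which encodes a transcription factor of fatty acid synthesis. Mir6921 lay in a region of 600 bp and was in state 4 in 7 strains. Another hairpin was listed inside F5, which encodes coagulation factor V. It lay in a region of 1800 bp and was in state 4 in 9 strains. No level of any miRNA was measured here.

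The regions were mostly short. Their length had quartiles of 400, 600 and 1400 bp, 4841 regions (20.6%) were a single bin, and the longest was 17000 bp. Only 452 regions (1.92%) reached 5 kb, but they held 11.4% of the bins. Of the bins, 50613 (37.9%) were in state 4 in 7 strains, 44253 (33.1%) in 8 and 38648 (28.9%) in 9. A bin in state 4 in all 9 strains occurred in 7665 regions (32.5%), whose median length was 1600 bp, against 400 bp for the regions with none. In 523 regions (2.22%) every bin was in state 4 in all 9 strains. In any strain, 943728 autosomal bins carried state 4, and the stable bins were 14.2% of them. The same share was 44.3% for state 1, 21.2% for state 2 and 17.4% for state 6, states to which the same rule was applied. Their stable bins numbered 232608, 141833 and 143506, so state 1 was not matched to state 4 in extent. Those states gave 42221, 38802 and 45100 regions, with median lengths of 800, 600 and 400 bp. At the threshold, 55.5% of the bins with 7 strains and 57.1% of those with 6 lay in gene bodies.

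The regions were on every autosome and almost absent from X. They took from 0.685% of the bins of chromosome 3 to 1.58% of those of chromosome 19. Chromosome 19 had 14.2 regions per Mb and chromosome 14 had 6.72. Over the 19 autosomes, regions per Mb and protein-coding genes per Mb had a Pearson r of 0.58 and a Spearman coefficient of 0.663. This is a description over chromosomes of the same 9 segmentations. The median gap between successive regions was 7000 bp, 25.5% of the gaps were at most 2 kb and 20.8% were over 50 kb.

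The longest region, of 17000 bp at chr16:23478401-23495400, lay in Masp1, which encodes a serine protease that starts the lectin pathway of complement. It held 85 bins, of which PWK/PhJ had 50 in state 4, DBA/2J 68, NOD/ShiLtJ 75, CAST/EiJ 79 and 129S1/SvImJ 84, while WSB/EiJ, NZO/HlLtJ, C57BL/6J and A/J had 85. PWK/PhJ and DBA/2J were the lowest, and 29 bins were in state 4 in all strains. The region at chr13:37920401-37934000 in Rreb1 was the most uniform of the 10 longest, with 67 or 68 of its 68 bins in state 4 in every strain and 66 bins in all 9.

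PWK/PhJ had the fewest state 4 bins in 5 of these 10 regions. In Mylk, the gene of myosin light chain kinase (chr16:34918601-34934600), it had 52 of 80 bins, WSB/EiJ had 66, 129S1/SvImJ had 77 and the other strains had 80. In Slc6a6, the gene of the taurine transporter (chr6:91737001-91751400), it had 40 of 72 bins, CAST/EiJ had 68 and the other strains had all 72. Between genes at chr8:126669601-126684200, where the nearest protein-coding gene is Irf2bp2 at 75615 bp, PWK/PhJ had 22 of 73 bins, DBA/2J 52, CAST/EiJ 69, WSB/EiJ 71 and the other strains 73. In the map of states, the bins that PWK/PhJ lacked in Masp1, in Slc6a6 and near Irf2bp2 were in state 14 and lay in a few blocks.

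The others of the 10 varied less. The region in Slc19a1 and Col18a1 (chr10:77049601-77066200), which encode the reduced folate carrier and collagen XVIII, had 74 bins of 83 in DBA/2J and in NOD/ShiLtJ, 79 in PWK/PhJ and 83 in the other strains. The region in Irf2 (chr8:46806401-46821200), the gene of an interferon regulatory factor, had from 63 of 74 bins in NOD/ShiLtJ to 74. The region in Ddc (chr11:11863401-11876800), the gene of DOPA decarboxylase, had from 56 of 67 bins in A/J to 67. At chr8:126853201-126868800, 61864 bp from Tomm20, the range was 63 bins in PWK/PhJ to all 78. On chromosome 18, 11675 bp from Dsg2, it was 51 bins in NOD/ShiLtJ to all 67.

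**Figure D1:**
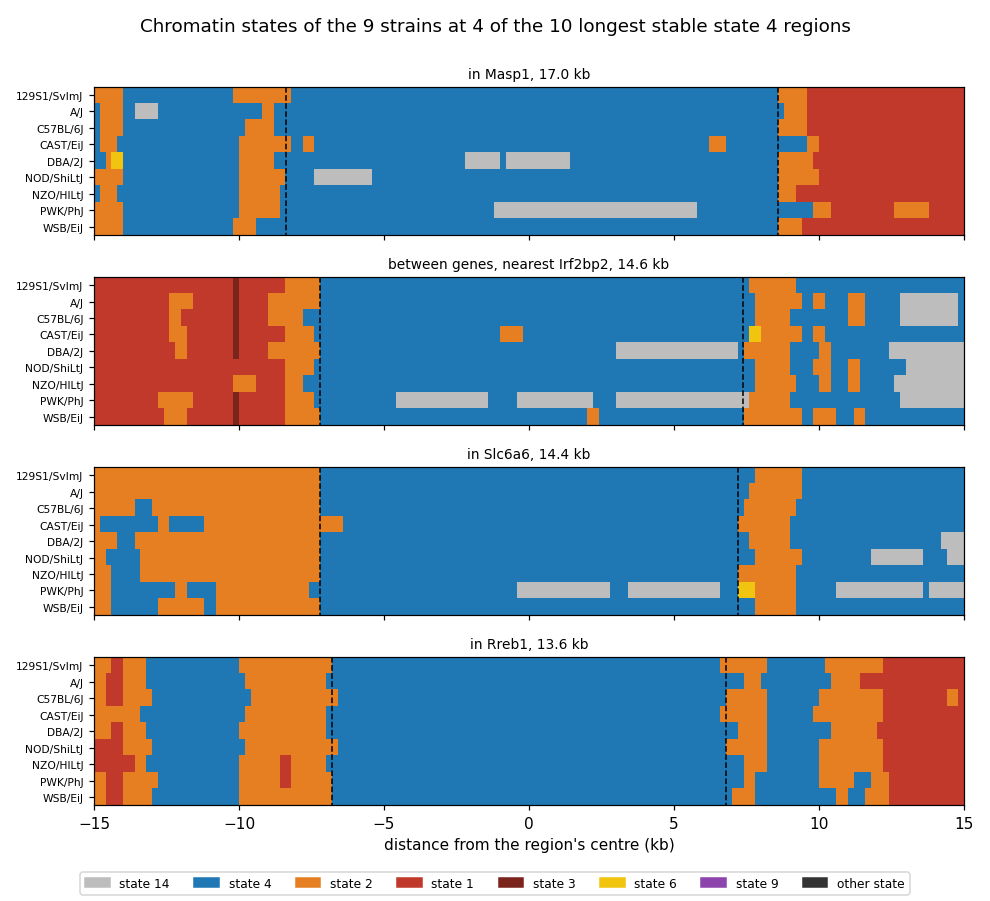
Chromatin states of the 9 strains (rows) in bins of 200 bp around 4 of the 10 longest stable state 4 regions, by distance from the region's centre in kb; dashed lines mark the region's ends and colours the states. State 14 (grey) interrupts state 4 (blue) in PWK/PhJ, which had 50 of 85 bins in state 4 in Masp1, while all strains had 67 or 68 of 68 bins in Rreb1.

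Strains differed in how many stable bins they carried and in how much of the genome they had in state 4. The share of the 133514 stable bins in state 4 was 95.8% in 129S1/SvImJ, 95.5% in C57BL/6J, 92.6% in WSB/EiJ and 90.6% in DBA/2J. It was 88.3% in CAST/EiJ, 88.0% in A/J, 84.4% in NZO/HlLtJ, 80.8% in NOD/ShiLtJ and 75.04% in PWK/PhJ. The share of all autosomal bins in state 4 was lowest in NOD/ShiLtJ at 1.90% and highest in CAST/EiJ at 3.49%, with 3.38% in 129S1/SvImJ and 2.36% in PWK/PhJ. Of a strain's own state 4 bins, from 27.5% in CAST/EiJ to 46.2% in NOD/ShiLtJ were stable. These shares follow in part from the rule, since each strain counted towards it, and carry no test.

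A share that the rule did not use was had by choosing bins without the strain it was read in. For each strain, bins in state 4 in at least 7 of the other 8 were chosen, and the share in state 4 was read in the strain left out. It was 93.6% in 129S1/SvImJ, 93.1% in C57BL/6J, 89.0% in WSB/EiJ, 86.4% in DBA/2J and 83.4% in CAST/EiJ. It was 83.1% in A/J, 78.5% in NZO/HlLtJ, 74.4% in NOD/ShiLtJ and 68.1% in PWK/PhJ. The mean was 83.3% ± 8.49 (SD, n = 9), against 2.73% ± 0.560 for all autosomal bins. The difference of 80.6 points ± 8.10 was positive in all 9 strains. An exact permutation test that flips the signs of the strains' differences, 2-sided as are all such tests below, gave p = 0.0039, which is the smallest value 9 strains can give. Any state that recurs between strains gives a positive difference here, so this test shows nothing particular to state 4. The sets of bins overlap between strains, and the strains share ancestry, so the 9 values here and below are not fully independent.

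State 4 recurred less than state 1 under this measure and did not differ beyond its spread from states 2 and 6. State 1 was found again in 93.6% ± 3.38 of bins chosen in the other strains, so that state 4 minus state 1 was -10.3 points ± 7.13 (SD, n = 9), negative in 9 of 9 strains (adjusted p = 0.0117 over 3 comparisons, exact permutation). State 2 was found again in 84.6% ± 6.67, a difference of -1.33 points ± 4.28 (exact permutation, adjusted p = 0.551). State 6 was found again in 84.9% ± 6.47, a difference of -1.63 points ± 8.58 (exact permutation, adjusted p = 0.574). Over the 3 wild-derived strains the mean share for state 4 was 80.2%, against 84.9% in the other 6 strains, a difference of -4.70 points (exact permutation over 84 arrangements, p = 0.488). Without PWK/PhJ that difference was 1.24 points in the opposite direction.

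**Figure D2:**
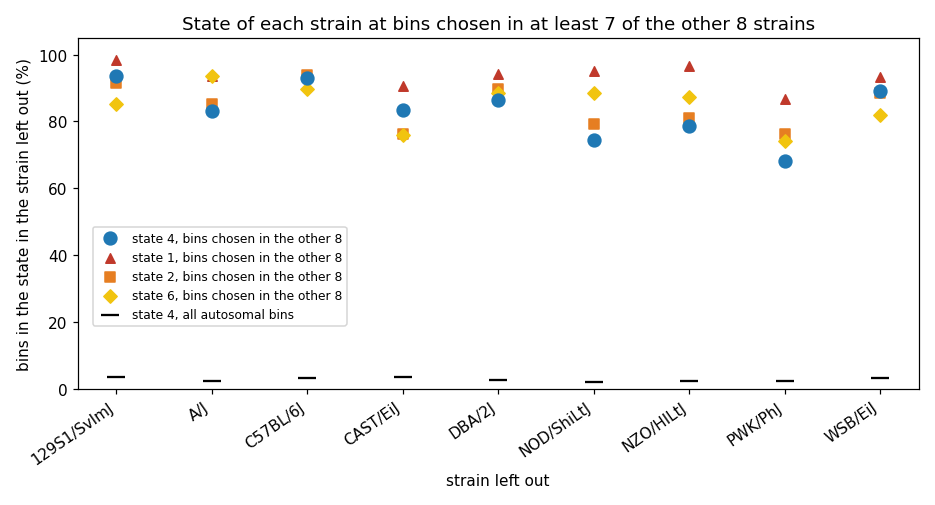
Share of bins (%) in a state in each strain, for bins chosen in that state in at least 7 of the other 8 strains; markers stand for states 4, 1, 2 and 6, and dashes for the share of all autosomal bins in state 4. State 4 runs from 68.1% in PWK/PhJ to 93.6% in 129S1/SvImJ, and state 1 lies above it in every strain.

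Where a stable bin was not in state 4 in a strain, it was mostly in state 14 or state 2, without a test since the rule used these bins. State 14, the most widespread state of the genome, took 62.0% ± 16.3 of the missing bins (SD, n = 9), from 31.99% in 129S1/SvImJ to 85.3% in NZO/HlLtJ. State 2 took 29.8% ± 15.7, from 9.71% in NZO/HlLtJ to 61.8% in 129S1/SvImJ. State 6 took 3.55%, state 3 took 1.85% and state 1 took 0.782% on average, and states 11 and 12 took 0. In the bins they lacked, 129S1/SvImJ thus had more state 2 than state 14, and NZO/HlLtJ had mostly state 14.

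An end bin lies next to a bin that did not meet the rule, so lower support at the ends of regions is in part built in by the rule, and the values are a description. In regions of at least 3 bins, 16.5% ± 7.65 of the end bins and 9.77% ± 6.53 of the inner bins were not in state 4. State 14 took 52.4% of the missing end bins and 70.02% of the missing inner bins. States 1 and 2 together took 39.8% and 23.9%. In bins with 8 strains in state 4, the strain that lacked it was PWK/PhJ in 26.3%, NOD/ShiLtJ in 18.1% and NZO/HlLtJ in 14.9%, and 129S1/SvImJ in 3.26%. In bins with 7 strains, the pair that lacked it was NZO/HlLtJ with PWK/PhJ in 9.65%, NOD/ShiLtJ with PWK/PhJ in 9.49%, and 129S1/SvImJ with C57BL/6J in 0.532%.

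Whole regions were also without state 4 in single strains. PWK/PhJ had no state 4 bin in 4952 regions (21.0%), NOD/ShiLtJ in 4100 (17.4%), NZO/HlLtJ in 2853 (12.1%) and 129S1/SvImJ in 902 (3.83%). These regions were short, with a median of 200 bp in 129S1/SvImJ and 400 bp in the other strains. The longest was the region of 10600 bp at chr1:88226401-88237000 in Mroh2a, whose 53 bins were all in state 14 in PWK/PhJ. Chosen after their values were seen, the longest in A/J was 5400 bp in Selenbp1 (chr3:94939801-94945200), the gene of a selenium-binding protein, and the longest in CAST/EiJ was 4800 bp in Ror1, which encodes a receptor tyrosine kinase. Both were in state 14 throughout in those strains.

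Outside their ends, the regions continued into state 2 more often than into any other state. At 38.3% ± 5.71 of the ends (SD, n = 9) a strain left state 4 at the region's end, and the mean extension of state 4 beyond it was 758 bp ± 145, from 517 bp in NOD/ShiLtJ to 978 bp in CAST/EiJ. The first other state was state 2 in 59.9% ± 3.57, state 14 in 28.1% ± 1.46, state 6 in 7.64% ± 2.14, state 1 in 1.99% and state 3 in 1.34%. Where a strain carried state 4 over a whole region, both sides led to state 2 in 33.6% ± 4.92, one side to state 2 and the other to state 14 in 37.9% ± 1.96, and both to state 14 in 6.30% ± 0.826. State 1 came farther out: it held 1.01% of the bins at 200 bp, 14.3% at 1000 bp and 13.4% at 5000 bp from the end. State 14 held 16.7%, 25.6% and 41.1% at these distances.

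**Figure D3:**
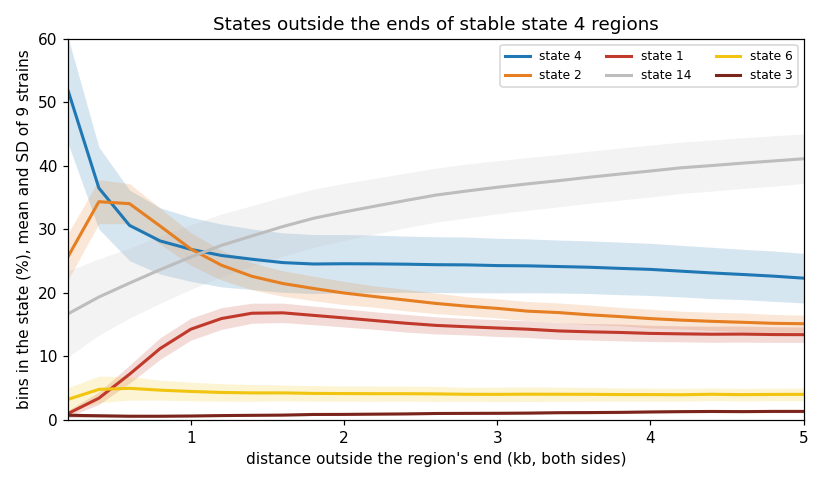
Percentage of bins in 6 states by distance outside the ends of stable state 4 regions (kb, both sides pooled); lines are means and bands SDs over 9 strains. State 4 falls from 51.8% at 200 bp to 26.9% at 1000 bp, where state 2 also holds 26.9% and state 1 holds 14.3%, and state 14 reaches 41.1% at 5000 bp.

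Stable regions of other states lay nearby. Within 2 kb, 69.7% of the stable state 4 regions had a stable state 2 bin, 42.1% a stable state 1 bin, 6.51% a stable state 6 bin and 2.31% a stable state 3 bin. A stable state 13 bin was within 2 kb of 0.0976%. In reverse, 48.8% of the stable state 2 regions, 21.2% of the state 1 regions and 3.38% of the state 6 regions had a stable state 4 bin within 2 kb. Stable state 1 regions had state 3 within 2 kb in 46.6%, and state 3 is the state found most often at start sites, as given below.

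Inside genes, the flanks were not symmetric. This was examined, after the data had been seen, in 9313 regions that lay with 5 bins to each side inside a single protein-coding gene of known strand. States 1 to 3 held 38.9% ± 3.52 of the 5 bins on the side of the gene's start and 34.1% ± 2.79 on the other side (SD, n = 9). The difference of 4.78 points ± 0.831 was positive in each of the 9 strains (exact permutation p = 0.0039, again the lowest possible). State 2 gave 3.22 points of it and state 1 gave 1.42 (9 of 9 strains each; exact permutation, adjusted p = 0.0059 over 6 states). For state 14 the start side minus the other side was -2.902 points, negative in 9 of 9 strains (same adjusted exact permutation p). State 6 differed by -0.018 points (exact permutation, adjusted p = 0.781).

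Of the stable state 4 bins, 54.5% lay in the bodies of protein-coding genes, 9.06% outside but within 5 kb and 12.8% more than 50 kb from any. Over all autosomal bins these shares were 40.1%, 5.62% and 36.3%. Within each strain, 54.4% ± 1.26 of its stable state 4 bins and 58.3% ± 5.95 of its other state 4 bins lay in gene bodies (SD, n = 9). The difference of -3.88 points ± 4.82 was negative in 7 of 9 strains (exact sign-flip permutation p = 0.0273). It was 1.34 points in C57BL/6J, 1.503 in NOD/ShiLtJ and -14.2 in NZO/HlLtJ, whose other state 4 bins lay in gene bodies in 71.8%. The call depended on the set of strains: leaving out 129S1/SvImJ, A/J, DBA/2J, PWK/PhJ or WSB/EiJ ended it, with exact permutation p between 0.0703 and 0.0938. A threshold of at least 6 strains, with all 9 strains kept, also ended the call, at -3.46 points (exact permutation p = 0.0508). Against other states, chosen after the data had been seen, the gene-body share of stable state 4 bins differed by -14.1 points from that of stable state 1, by -14.99 from that of state 2 and by -20.6 from that of state 6. Each of these was negative in every strain (adjusted p = 0.0039 by the exact permutation test), and the strains share most of these bins.

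Stable state 4 was scarce at gene starts. A stable state 4 bin lay at 0.718% of the start sites, and downstream its share first fell, to 0.538% at 2000 bp. The share reached 1.99% at 8800 bp downstream and 2.20% at 9200 bp upstream (given as -9200), beside 1.08% of all autosomal bins. Stable state 3 lay at 37.1% of the starts, and stable state 1 was highest 600 bp upstream, at 29.9%. Starts on chromosome 18 were not used. Within 1 kb of a start lay 1.12% ± 0.0293 of the stable state 4 bins of a strain and 1.30% ± 0.176 of its other state 4 bins (SD, n = 9), a difference of -0.174 points ± 0.170, negative in 8 of 9 strains (exact sign-flip permutation p = 0.0195). The size and sign depended on the positions used. Within 5 kb of a start the difference was -1.83 points, negative in 9 of 9 strains (exact permutation p = 0.0039). Within 1 kb of the starts of all annotated genes it was 0.067 points in the opposite direction (exact permutation p = 0.422). Around both ends of protein-coding genes it was 0.321 points, also in the opposite direction (exact permutation p = 0.0703). The call within 1 kb of a start was also lost when 129S1/SvImJ, CAST/EiJ or NOD/ShiLtJ was left out (exact permutation p between 0.0547 and 0.0859). At least 6 of the other 8 strains were then required. Stable state 1 bins lay within 1 kb of a start in 18.5% ± 0.554, stable state 2 bins in 0.713% and stable state 6 bins in 0.546%. Stable state 4 minus state 1 was thus -17.3 points, minus state 2 it was 0.409 and minus state 6 it was 0.576, with the same sign in each strain (exact permutation, adjusted p = 0.0039).

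**Figure D4:**
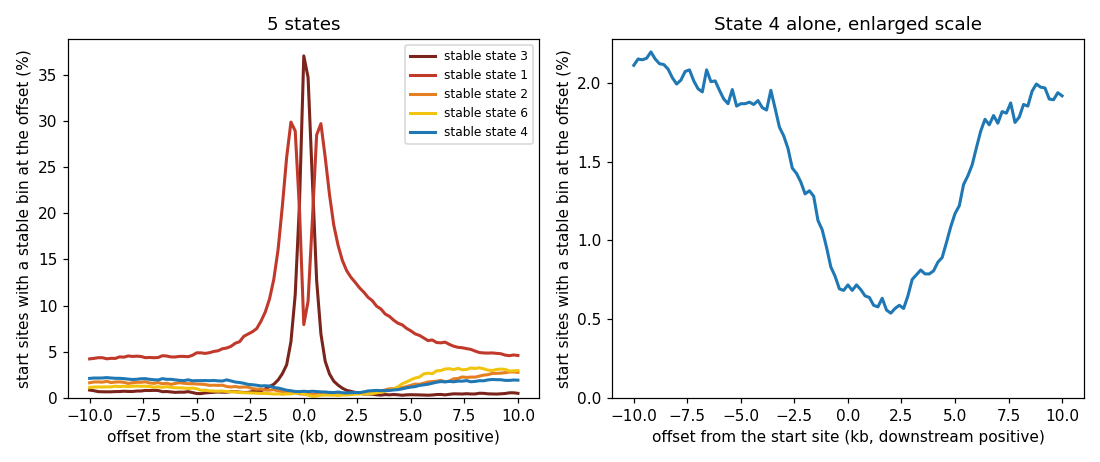
Percentage of 20062 protein-coding start sites with a stable bin of 5 states at each offset (kb, downstream positive), left, and of state 4 alone on an enlarged scale, right. Stable state 4 lies at 0.718% of the starts, at 1.92% at 10 kb downstream and at 2.11% at 10 kb upstream, while stable state 3 peaks at the start with 37.1%.

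Genes differed widely in how many stable state 4 bins they held. A stable bin lay in the body of 4291 of 20661 autosomal protein-coding genes (20.8%), with a median of 8 bins where there was any, and 308 genes held 50 or more. The gene with the most was Rad51b, which encodes a protein of homologous recombination, with 356 stable bins in 551 kb. Its state 4 bins numbered 490 in DBA/2J, 538 in A/J, 545 in NZO/HlLtJ, 566 in PWK/PhJ, 645 in WSB/EiJ, 661 in C57BL/6J, 722 in CAST/EiJ, 739 in NOD/ShiLtJ and 929 in 129S1/SvImJ. In every strain Rad51b thus held state 4 bins beyond its stable ones, most of all in 129S1/SvImJ.

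The next genes by number of stable bins held between 223 and 310. Arhgap26, which encodes a GTPase activating protein, held 310 stable bins, and its state 4 bins ran from 409 in DBA/2J to 919 in CAST/EiJ. Prkce, the gene of protein kinase C epsilon, held 294, Nav2 held 292 and Gse1 held 290. Tns1, the gene of the focal adhesion protein tensin, held 289 stable bins, which covered 26.96% of its body, with state 4 bins from 286 in NOD/ShiLtJ to 432 in 129S1/SvImJ. Ctif held 283 and Xxylt1, which encodes a xylosyltransferase, held 263 in a body of 126 kb, a cover of 41.6%. Itpr1, the gene of an inositol trisphosphate receptor, held 254, Mylk and Vps13d held 243 each, and Arhgef3 held 223. Length enters such counts directly, so cover per length is given next.

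Among the 13320 genes of at least 10 kb, 190 had over 25% of the body in stable state 4 and the median gene had 0. Tmem161a had the highest cover, 63.8%, from 37 stable bins, with 26 state 4 bins in NOD/ShiLtJ and 36 to 42 in the other strains. Serpinf1, which encodes the secreted factor PEDF, had 59.4%, with 33 bins in PWK/PhJ to 42 in CAST/EiJ. Asl, the gene of argininosuccinate lyase of the urea cycle, had 53.0% in a body of 13.1 kb, with 28 bins in NOD/ShiLtJ and WSB/EiJ and up to 40 in A/J and NZO/HlLtJ. Masp1 had 46.7% and Pex26, which encodes a peroxisome assembly factor, had 46.8%.

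Some genes with high cover differed between strains. Slc22a6, the gene of an organic anion transporter, had a cover of 58.5%, with 10 state 4 bins in PWK/PhJ, 15 in NZO/HlLtJ, 28 in NOD/ShiLtJ, 37 in 129S1/SvImJ and 51 to 53 in the other strains. PWK/PhJ and NZO/HlLtJ were the lowest there. Mroh2a had 49.4%, with 24 bins in PWK/PhJ and 87 to 118 in the other strains. B4galnt4 had 46.6%, with 13 bins in PWK/PhJ and 19 in NZO/HlLtJ and 27 to 39 in the other strains. Ube2l6, which encodes a conjugating enzyme for ISG15, had 49.1%, with 17 bins in WSB/EiJ, 23 in NZO/HlLtJ and 28 to 33 in the others. The 3 that complete the 12 were Slc11a1 with 48.2%, Dnase1l3 with 46.3% and Fgfr3 with 46.2%. Slc11a1 encodes a metal transporter of phagocytes, and its state 4 bins ran from 21 in NOD/ShiLtJ to 40 in C57BL/6J.

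Lists of liver genes had stable state 4 at a larger share of their genes than all genes had, given here as counts without a test. At least 1 stable bin lay in the body or within 5 kb of 5659 of 20661 autosomal protein-coding genes, which is 27.4%. The counts were 18 of 20 for xenobiotic metabolism, 15 of 18 for glucose and amino acid metabolism, 15 of 20 for lipid and bile acid metabolism, and 15 of 20 for hepatocyte secreted and metabolic genes. They were 14 of 19 for complement, coagulation and acute phase, 14 of 20 for the circadian clock and 13 of 20 for hepatocyte transcription factors. Ubiquitously expressed genes gave 9 of 18, neuronal genes 3 of 19 and developmental regulators 1 of 20. A window of 5 kb can reach a neighbouring gene. In bodies alone, where all genes gave 20.8%, the counts fell to 9 of 20 for hepatocyte secreted and metabolic genes and 3 of 18 for ubiquitous genes. The median body was 10.6 kb and 5.13 kb in these lists and 17.5 kb over all genes. It was longer than that in the other liver lists: 23.9 kb for complement and coagulation, 24.8 kb for lipids, 24.9 kb for transcription factors, 25.8 kb for glucose and amino acids, 26.6 kb for xenobiotics and 32.8 kb for the clock. Developmental regulators had the shortest median body of all lists, 4.58 kb, and neuronal genes had the longest, 72.9 kb. The counts are not adjusted for length.

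**Figure D5:**
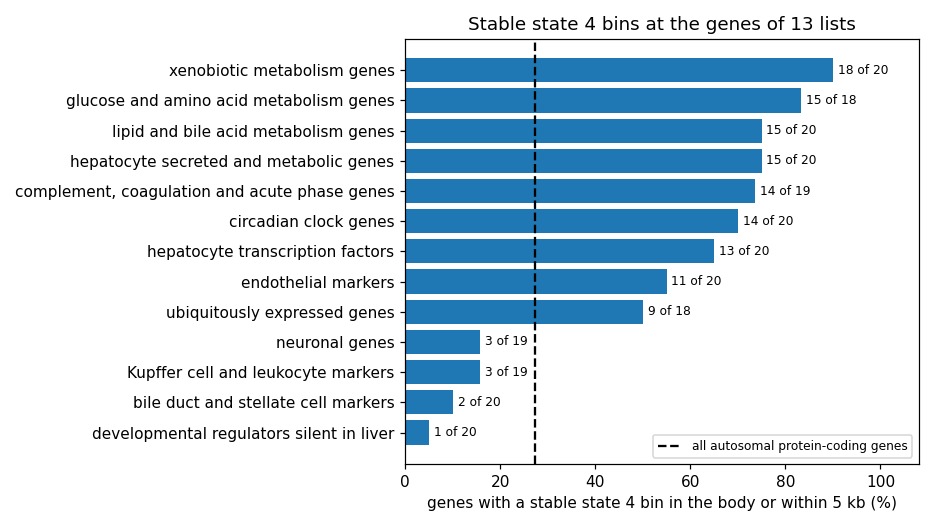
Percentage of genes of 13 lists with at least 1 stable state 4 bin in the body or within 5 kb, with counts beside the bars; the dashed line is the 27.4% of all autosomal protein-coding genes. Lists of liver metabolism lie at the top, from 15 of 20 to 18 of 20 genes. Developmental regulators, the list with the shortest median body, lie at the bottom with 1 of 20.

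In lipid and bile acid metabolism the median gene held 27 stable bins in the body and 5 kb around it, against 0 over all genes. Acaca, the gene of acetyl-CoA carboxylase, which makes malonyl-CoA for fatty acid synthesis, held 141 stable bins in its body, with 117 state 4 bins in NOD/ShiLtJ and 166 to 318 in the other strains. Cpt1a, the gene of the carnitine palmitoyltransferase that admits fatty acids to mitochondria, held 46, and Srebf2 held 30. Hmgcs1, Cyp8b1 and Slc10a1 had no state 4 bin in the body in any strain.

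In glucose and amino acid metabolism the median was 18.5 bins. Pcx, the gene of pyruvate carboxylase, held 70 stable bins, with 62 to 98 state 4 bins over the strains. Pygl, the gene of liver glycogen phosphorylase, held 52, with 30 state 4 bins in NOD/ShiLtJ and 63 to 102 elsewhere, and Gys2, the gene of liver glycogen synthase, held 46. Among xenobiotic genes Abcc2, which encodes an export pump of the bile canaliculus, held 78 stable bins with 67 to 127 state 4 bins. Por, the gene of cytochrome P450 reductase, held 47 with 44 to 59 state 4 bins, a narrow range. Among genes of complement and coagulation F5 held 73 stable bins, C8a 53 and F2, the gene of prothrombin, 28. F7, the gene of coagulation factor VII, had 41.5% of its 10.3 kb covered, with 8 state 4 bins in NOD/ShiLtJ and 22 to 31 in the other strains.

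Among regulators, Nr1i2, the gene of the xenobiotic receptor PXR, held 71 stable bins and a cover of 30.3%, with 53 state 4 bins in PWK/PhJ and 68 to 97 in the other strains. Ppara, the gene of the fatty acid receptor, held 44 and Nr1h4, the gene of the bile acid receptor FXR, held 36. In the list of hepatocyte transcription factors, 9 of 20 genes held a stable bin in the body. In that list 7 genes, among them Foxa1, Foxa2, Foxa3 and Cebpa, had no state 4 bin in the body in any strain. Hnf4a held no stable bin in its body. Of clock genes, Rora held 171 stable bins in 735 kb, and Per2, which encodes a repressor of the clock, held 66 with a cover of 30.3% and 65 to 104 state 4 bins. Of the hepatocyte genes, Cps1, the gene of the carbamoyl phosphate synthetase of the urea cycle, held 19, and Alb, the gene of albumin, held 15, with 13 to 24 state 4 bins over the strains. Apoa1, Fgb and Hp were among 5 genes of that list with none in the body in any strain.

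Markers of other liver cells were also met. Endothelial markers gave 11 of 20, and 10 of 20 held a stable bin in the body. Pecam1 held 72 stable bins, Dnase1l3 69, Stab2 68 and Eng 42. Cdh5, Kdr, Tek, Flt1, Emcn and Erg were among those with no stable bin in the body. Only Cldn5 had no state 4 bin in its body in any strain. The summed state 4 bins in the bodies of the endothelial list ran from 508 in PWK/PhJ to 767 in CAST/EiJ. Stab2 alone gave 21 of the bins in PWK/PhJ and 371 of those in CAST/EiJ, with 118 to 242 in the other strains. Per 10000 state 4 bins of the strain, the endothelial sums ran from 15.4 in C57BL/6J to 22.5 in NOD/ShiLtJ. The sums of the hepatocyte transcription factors ran from 372 in NOD/ShiLtJ to 557 in CAST/EiJ, the strains with the least and the most state 4 in the genome. Per 10000 state 4 bins they ran from 11.6 in C57BL/6J to 17.1 in NZO/HlLtJ. Kupffer cell and leukocyte markers gave 3 of 19, with sums of 4 in PWK/PhJ and 35 to 82 in the other strains. Most of the bins in those other strains lay in Cd4 and Csf1r. Cd4 had 1 state 4 bin in PWK/PhJ and 13 to 68 elsewhere, and Csf1r had 1 and 10 to 25. In that list 11 genes, among them Adgre1, Marco and Timd4, had no state 4 bin in the body in any strain, and Csf1r and Cd4 held 7 stable bins each. Bile duct and stellate cell markers gave 2 of 20, with sums of 83 to 171, and 14 genes, Krt7, Krt19 and Sox9 among them, had none in any strain. What part other cells of the liver have in the regions, and in the low values of PWK/PhJ, was not tested.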

How the data were processed

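Per the labels, hepatocytes of female mice of 9 strains were cross-linked with formaldehyde and used for ChIP-seq of 4 histone marks and input, 13 libraries per strain. The submitters' processing notes name the build mm10, FastQC 0.11.5 and MACS 1.4.2 with no role; the aligner and the segmentation tool are not given in the sources used here. The deposited values, per the file headers, are 1 segmentation of 14 states per strain: column 4 is a category, not a count, signal or score, and the intervals tile the genome in steps of 200 bp. The depth is unknown, so no counting interval is given. The file that joins all strains was not used.

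The segmentations were written as states of 200-bp bins and counted by strain. Gene bodies came from RefSeq (GRCm38.p6), and start sites and strand from the RefSeq promoter table, which covers 79.7% of the autosomal protein-coding genes. Chromosome 18 was left out of start-site and strand results. Of 260 list entries 253 matched. Samples were grouped by the strain in their labels. Tests were exact sign-flip permutations over 9 strains (512 patterns) and an exact permutation of 3 strains against 6, with Benjamini-Hochberg adjustment. Named genes are those of the 10 longest regions, the 12 with the most stable bins, the 12 of at least 10 kb with the largest cover, and list members with the most stable bins or, as examples, with none. Some genes that the rule names are not reported here. The members and lists were chosen with earlier results of these data known. Alternatives were the number of strains, single-bin segments, chromosome X, gene set, window, merging and each strain left out. The GC test was not run, since no genome was used here. The code was tested on simulated data. The tools were Python 3.11.15 with pandas 2.3.3, numpy 2.4.6, matplotlib 3.10.9 and scipy 1.17.1.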

Additional observations from a re-analysis of the deposited data

Results flagged for a closer look

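In 3 of 43 sets of values over the 9 strains, the highest or lowest strain lay apart from its neighbour by more than Dixon's 95% limit. Chance flags about 1 in 20 sets, which is 2.15 here. NOD/ShiLtJ had state 9 in 8.85% of the stable bins it lacked, against 0.0333% in C57BL/6J to 1.001% in A/J among the other strains. NOD/ShiLtJ also lay apart in Tmem161a, with 26 state 4 bins against 36 or more in the other strains. PWK/PhJ lay apart in Mroh2a, with 24 state 4 bins against 87 or more.

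Chromosome X was outside the rule. It held 152 bins in state 4 in at least 7 strains, in 30 regions, which is 0.0178% of its 855156 bins.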

How the results depend on the processing

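No paired analysis was possible because the mice, whose numbers recur between strains, are combined in 1 segmentation per strain; the sign-flip tests compare values within the same segmentation. The test of GC content was not run. Requiring at least 6 strains ended the difference in gene bodies, at -3.46 points (exact sign-flip permutation p = 0.0508). The stable bins numbered 82901 with at least 8 strains and 38648 with 9 of 9, the latter in 8755 regions. The difference at start sites changed sign at the starts of all annotated genes, to 0.0667 points (exact permutation p = 0.422). It also changed sign around both ends of protein-coding genes, to 0.321 (exact permutation p = 0.0703), a setting chosen after seeing the data. In gene bodies alone, 9 genes of the hepatocyte list, 3 of the ubiquitous list and 9 of the complement list had a stable bin. The causes were not tested. Of the alternative values, 221 kept their direction and call or moved little, 9 lost the call, 3 changed sign and 6 counts moved further.

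With 1 strain left out, the excess of state 4 over its share in all bins was 78.1 to 79.5 points. Its difference from state 1 was -11.7 to -10.8, from state 2 -1.97 to -1.26 and from state 6 -2.24 to -1.32. The difference of wild-derived from other strains was -9.23 to 1.24, and only leaving out PWK/PhJ gave the positive value. Stable minus other bins gave -4.74 to -3.33 points in gene bodies and -0.182 to -0.135 at start sites. Stable bins numbered 142309 to 163860 and regions 24868 to 27301, since 6 of 8 strains were then required. The asymmetry of states 1 to 3 was 4.62 to 4.93 points. Depth is unknown, so a bin that missed state 4 for lack of reads cannot be told from one in another state.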
